A study of Mus musculus with 11 samples.

Results

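The B cell receptor and follicle genes examined here were Cd79a, Cd79b, Ms4a1, Cr2, Fcer2a, Pax5, Cd22, Blk and Bank1, which are 9 of the 45777 genes in the deposited table. They were chosen by name as genes of the B cell receptor, of B cell identity and of lymphoid follicles, with earlier results of these data known. RNA was sequenced from whole skin and whole small intestine of BALB/c mice of 8 to 10 weeks, which carried no stated transgene or deletion. The control mice received Vaseline and the others imiquimod (IMQ) cream with 5% IMQ, 62.5 mg per day on the shaved back and right ear, for 5 to 8 days according to the labels. IMQ activates Toll-like receptors and gives psoriasis-like inflammation where it is applied, so the small intestine was a distant organ. The groups were 3 control libraries (replicates 1 to 3) and 3 IMQ libraries (replicates 4 to 6) of skin, and 3 control libraries (replicates 7 to 9) and 2 IMQ libraries (replicates 10 and 11) of small intestine. The labels do not say which libraries came from the same mouse, which stretch of intestine was taken or whether Peyer's patches were left in the tissue used for RNA. They do not state that replicates were separate animals either, and p-values then measure only the spread between these libraries. In bulk tissue, fewer B cells and less RNA per B cell cannot be told apart.

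The B cell receptor consists of a membrane immunoglobulin and the chains Igα and Igβ, encoded by Cd79a and Cd79b, which carry the signal into the cell. Pax5 is the transcription factor that holds B cells in their lineage. Ms4a1 (CD20), Cr2 (the complement receptor CD21) and Fcer2a (the IgE receptor CD23) are surface proteins of mature B cells, and Cr2 and Fcer2a are also found on follicular dendritic cells. Cd22 is an inhibitory co-receptor that binds sialic acid, Blk a Src-family kinase and Bank1 an adaptor of B cell receptor signaling. When a B cell becomes a plasma cell it turns down Pax5 and most of these genes, while Cd79a can persist. In the gut, naive and germinal center B cells sit in follicles such as Peyer's patches, and IgA plasma cells fill the lamina propria. Some of these genes are not limited to B cells, since Blk is also used by IL-17-producing γδ T cells.

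In the GRCm38 annotation the genes lie apart, Cd79a at chr7:24897497-24901858 on the plus strand and the others on the minus strand, with Cd79b at chr11:106311341-106314562, Ms4a1 at chr19:11249679-11266149, Cr2 at chr1:195136811-195176880, Fcer2a at chr8:3680280-3694174, Pax5 at chr4:44524748-44710694, Cd22 at chr7:30865404-30880342, Blk at chr14:63372837-63417187 and Bank1 at chr3:136053363-136326141. Ms4a1, Pax5, Cd22 and Bank1 overlap an annotated gene on the opposite strand, and although the library kit was stranded, the sources do not state whether strand was used in counting, so their counts are uncertain.

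The 250 bases before the transcription start were looked up for each gene in RefSeq (GRCm38.p6), and 6 of the 9 genes had an entry. Those of Cd79a, Cd22, Cr2 and Bank1 are shown because these 4 genes behaved differently across the libraries. Capitals mark matches on either strand to motifs of B cell transcription factors, namely the early B cell factor motif TCCCNNGGG, the ETS motif AGGAAG and the E-box CAGGTG. The Cd79a sequence lies at chr7:24897247-24897496 on the plus strand. The others lie on the minus strand, Cd22 at chr7:30879029-30879278, Cr2 at chr1:195176720-195176969 and Bank1 at chr3:136326067-136326316, and each is written from its own 5′ end to the RefSeq start of transcription. The starts in RefSeq and in the annotation used for the positions differ, since the Cd22 sequence lies inside the annotated gene and those of Cr2 and Bank1 overlap its 5′ end.
Cd79a promoter: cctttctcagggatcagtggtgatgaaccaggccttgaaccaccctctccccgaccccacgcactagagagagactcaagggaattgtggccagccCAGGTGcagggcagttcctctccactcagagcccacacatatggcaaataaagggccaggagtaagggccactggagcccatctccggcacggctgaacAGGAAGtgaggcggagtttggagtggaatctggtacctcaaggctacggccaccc
Cd22 promoter: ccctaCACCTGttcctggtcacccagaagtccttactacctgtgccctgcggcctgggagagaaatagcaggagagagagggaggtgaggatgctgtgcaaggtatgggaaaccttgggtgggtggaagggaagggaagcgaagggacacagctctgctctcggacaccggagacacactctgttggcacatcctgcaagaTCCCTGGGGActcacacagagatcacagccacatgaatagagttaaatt
Cr2 promoter: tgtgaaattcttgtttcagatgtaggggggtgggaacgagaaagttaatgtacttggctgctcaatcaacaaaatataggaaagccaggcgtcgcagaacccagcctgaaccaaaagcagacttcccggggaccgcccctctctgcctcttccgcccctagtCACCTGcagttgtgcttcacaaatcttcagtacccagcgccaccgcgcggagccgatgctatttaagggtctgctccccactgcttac
Bank1 promoter: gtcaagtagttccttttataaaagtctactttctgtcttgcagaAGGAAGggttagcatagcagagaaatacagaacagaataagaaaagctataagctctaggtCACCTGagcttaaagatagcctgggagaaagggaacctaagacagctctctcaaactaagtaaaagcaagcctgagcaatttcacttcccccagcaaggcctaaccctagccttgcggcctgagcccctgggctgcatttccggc
Cd79a held an E-box and an ETS match, Bank1 an ETS match and an E-box, and Cr2 an E-box. Cd22 held an E-box and the early B cell factor motif, which matched on both strands at overlapping positions. Of 32851 RefSeq promoters of the same length, 5.6% held the early B cell factor motif, 29.5% the ETS motif and 17.2% the E-box, so the last 2 are common. The octamer ATGCAAAT was in 1.6% of promoters and in none of the entries for these genes. A match is a description of the letters and does not show binding.

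All 11 libraries were deep, with 44995414 to 58526384 counts. The summed FPKM (a level per gene length and library size, as computed by the authors) of 7 skin epithelium genes ran from 4810 to 13200 in the skin libraries but only from 0.497 to 1.42 in the intestinal ones. That of 7 intestinal epithelium genes was 6500 to 11600 in the intestinal libraries, so the tissue labels held. In skin, control replicate 2 stood apart with a summed FPKM of 247 for the intestinal epithelium genes and 2255 counts of Igha, the heavy chain of IgA, against 295 to 827 in the other 5 skin libraries. In small intestine, control replicate 9 stood apart in follicle genes, as described next, and results that rest on it are given with and without it.

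In control small intestine the signaling chains of the receptor led and the genes of mature follicular B cells were low. Per length, Cd79a was highest at 11 ± 2.78 FPKM (SD, n = 3), followed by Cd79b at 4.02 ± 0.980, Cd22 at 1.61 ± 0.422 and Bank1 at 1.04 ± 0.350. Ms4a1 (0.797 ± 1.04), Fcer2a (0.451 ± 0.590), Blk (0.408 ± 0.311), Cr2 (0.292 ± 0.373) and Pax5 (0.191 ± 0.285) came after them. The spreads of Cd79a, Cd79b and Cd22 did not meet, those of Cd22 and Bank1 did, and from Bank1 down no neighbours differed beyond their spread. The SD exceeded the mean for Ms4a1, Fcer2a, Cr2 and Pax5. With IMQ the order became Cd79b (9.08 ± 1.80 FPKM, SD, n = 2), Cd79a (7.34 ± 0.283), Bank1 (2.94 ± 0.327), Cd22 (0.577 ± 0.169) and Blk (0.476 ± 0.122), with the spreads of Cd79b and Cd79a meeting and the other 4 genes below 0.2 FPKM.

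The wide spread of these 4 genes went with control replicate 9. Pax5, the lineage factor, had 7 counts in control replicate 7, 17 in replicate 8 and 279 in replicate 9, and 59 and 35 in the IMQ libraries. Ms4a1, which encodes CD20, had 17, 48 and 389 counts in controls 7, 8 and 9, and 58 and 15 with IMQ. Cr2, the complement receptor, had 13, 43 and 308 counts in the controls, and 50 and 11 with IMQ. In each of these genes replicate 9 was the highest of the 5 libraries, and the IMQ libraries overlapped the range of the controls. Fcer2a, the IgE receptor, had 5, 44 and 203 counts in the controls and 40 and 13 with IMQ, with the same library on top. After normalization, replicate 9 exceeded the mean of replicates 7 and 8 by 20.8-fold for Pax5, 10.8-fold for Ms4a1, 9.9-fold for Cr2 and 7.53-fold for Fcer2a. Among the 18195 genes whose normalized counts averaged 10 or more, the median of this fold was 0.988 and 48 genes (0.264%) reached 5-fold. Replicates 7 and 8 also differed from each other in these genes, with replicate 8 8.18-fold above replicate 7 for Fcer2a and 2.26-fold to 3.07-fold above it for Pax5, Ms4a1 and Cr2.

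The remaining genes did not follow replicate 9 to this extent. Cd79a had 720, 428 and 775 counts in the controls, and replicate 9 was 1.18-fold above the mean of the other 2 controls after normalization. Cd22 (384, 252 and 484 counts), Cd79b (271, 201 and 401) and Bank1 (202, 117 and 288) gave 1.33-fold, 1.49-fold and 1.58-fold. Blk lay between the blocks, with 21, 43 and 122 counts and a fold of 3.41. Cd79a made up 47.2% of the summed FPKM of the 9 genes in replicate 9 against 64.2% and 57.7% in replicates 7 and 8, although its level in replicate 9 was within their range.

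**Figure D1:**
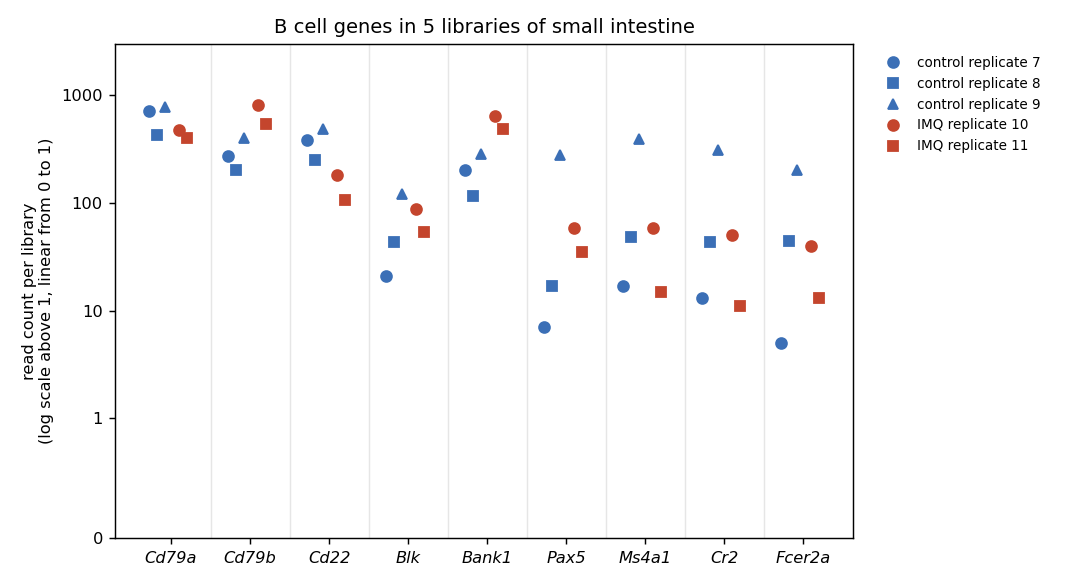
Read count of each of the 9 genes (y axis, log scale above 1) in the 5 small intestine libraries, with blue symbols for the 3 controls, red symbols for the 2 IMQ libraries and 1 symbol shape per library within a group. Control replicate 9 (blue triangle) lies far above the other libraries for Pax5, Ms4a1, Cr2 and Fcer2a and close to another control for Cd79a and Cd22, while Cd79b and Bank1 are highest in the IMQ libraries.

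Of the wider B cell genes, Ighd and Cxcr5, picked after their values were seen, were also highest in replicate 9. Among the controls, the sums of the follicle and signaling lists were highest in replicate 7. Those of the germinal center and transcription factor lists were highest in replicate 9 by a small margin, and higher still in both IMQ libraries. The summed FPKM in controls 7, 8 and 9 was 103, 87.6 and 98.1 for 18 follicle genes and 200, 165 and 170 for 20 B cell signaling genes. It was 5.07, 5.23 and 5.65 for 7 germinal center genes, and 73.8, 84.6 and 91.6 for 11 B cell transcription factors. Most of the follicle sum was Ltbr, at a mean of 56.5 FPKM in the controls, so it says little about the B cell genes of that list. The other sums were led by few genes too. In the controls these were Cd81 (mean 85.7 FPKM) for signaling, Irf8 (45.5) for transcription factors, and Bcl6 (2.65) and S1pr2 (1.49) for the germinal center list. These sums therefore say little about the less abundant genes of their lists, which can differ more between the controls. Ighd, the IgD heavy chain of naive B cells, had 10, 26 and 255 counts in controls 7, 8 and 9, and 34 and 21 with IMQ. Cxcr5, the receptor that brings B cells into follicles, had 4, 27 and 109 counts in the controls and 25 and 22 with IMQ, and replicate 9 was again the highest. Genes of plasma cells and T cells did not single out this library. Igha had 408476, 215146 and 246412 counts in the controls, Jchain, which joins IgA into dimers, 82524, 53985 and 61634, and Cd3e, a chain of the T cell receptor complex, 527, 356 and 620. The summed FPKM of the 6 genes of follicle-associated epithelium and M cells was 21, 23.6 and 22.5 in the 3 controls, and that of 5 genes of the distal small intestine 127, 143 and 180. The part of tissue composition in the level of replicate 9 was not tested.

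IMQ against control in small intestine asked whether these genes differed with IMQ treatment in a distant organ. The paper measured IMQ itself in the serum and intestine of treated mice, so the drug and the skin inflammation cannot be told apart here. All 9 genes could be tested, and edgeR's quasi-likelihood test called 0 of them at a Benjamini-Hochberg adjusted p under 0.05, against 588 of 19965 genes (2.95%) over the whole table. At an unadjusted p under 0.05 there were 3 genes, Bank1, Cd79b and Cd22, against 12.3% of all genes tested. DESeq2 called these same 3 genes, against 6.04% of all genes, and limma on log2(FPKM + 0.01) none.

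In those 3 genes the IMQ and control libraries did not overlap, which was also so for 29% of all genes tested, and their directions differed. Bank1, the adaptor, had 202, 117 and 288 counts in the controls against 645 and 492 with IMQ. The log2 fold change was 1.49 (SE 0.33, 95% interval 0.72 to 2.26, edgeR adjusted p = 0.0693). Cd79b had 271, 201 and 401 counts in the controls against 805 and 538, a log2 fold change of 1.20 (SE 0.27, 0.56 to 1.83, edgeR adjusted p = 0.0765). Both genes were higher in each IMQ library than in every control. Cd22 had 384, 252 and 484 counts in the controls against 181 and 106, so each IMQ library was below every control. Its log2 fold change was -1.40 (SE 0.32, -2.15 to -0.64, edgeR adjusted p = 0.082), and of the 5 edgeR fits that left out 1 library it passed in the fit without control replicate 8 (edgeR adjusted p = 0.0403).

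The other chain of the receptor did not move with Cd79b. Cd79a had 477 and 400 counts with IMQ, within or below the control range, and a log2 fold change of -0.55 (SE 0.27, -1.18 to 0.08, edgeR adjusted p = 0.49). The ratio of Cd79b to Cd79a FPKM was 0.305, 0.383 and 0.421 in the controls and 1.37 and 1.09 with IMQ. Blk had 88 and 54 counts with IMQ and a log2 fold change of 0.22 (-1.22 to 1.66, edgeR adjusted p = 0.941).

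For the 4 genes high in replicate 9, the fitted change depended on that library. With all controls the log2 fold changes were -2.02 for Ms4a1 (SE 1.21), -1.97 for Cr2 (1.20), -1.63 for Fcer2a (1.16) and -1.03 for Pax5 (1.27), with edgeR adjusted p from 0.601 to 0.842. Without replicate 9 they were 0.06, 0.01, 0.03 and 1.88, and none passed the threshold. Intervals such as -4.85 to 0.81 for Ms4a1 left both a large fall and a small rise possible, so a change of these genes was not detectable here. Bank1 (1.74), Cd79b (1.42) and Cd22 (-1.25) kept their directions without replicate 9, with adjusted p of 0.0826, 0.0762 and 0.235.

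In skin without IMQ all 9 genes were low, and 4 of them had 8 counts or fewer in every control library. Per length, Fcer2a (0.772 ± 0.874 FPKM, SD, n = 3), Cd79b (0.433 ± 0.228), Bank1 (0.296 ± 0.118) and Blk (0.260 ± 0.0408) were the highest in control skin, and no neighbours in this order differed beyond their spread. With IMQ the order was led by Blk (8.91 ± 5.72 FPKM) and Cd79b (4.61 ± 0.363), which did not differ beyond their spread, and then Cd22 (0.508 ± 0.156) and Bank1 (0.361 ± 0.142). In control skin Cd79a (0.108 FPKM), Cd22 (0.0694), Ms4a1 (0.0126), Cr2 (0.00577) and Pax5 (0.00137) followed. Pax5 had 0, 0 and 2 counts in the 3 control libraries and 0, 6 and 7 with IMQ. Ms4a1 had 3, 5 and 0 counts in the controls and 0, 14 and 2 with IMQ. The groups of both genes overlapped, and a count of 0 allows up to 3 counts.

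Control small intestine was set against control skin to ask where the genes were more abundant without treatment. Of the 5 genes detected in all 11 libraries, 3 were higher in small intestine by edgeR's quasi-likelihood test, but 10321 of 18108 genes (57%) were called between these tissues in either direction. Cd22 was higher by 4.85 on the log2 scale (SE 0.37, edgeR adjusted p = 1.1e-06), Cd79b by 3.64 (SE 0.39, 1.24e-05) and Bank1 by 2.24 (SE 0.39, 0.000488). Blk (1.12, SE 0.57, edgeR adjusted p = 0.12) and Fcer2a (-0.02, SE 0.99, 0.99) did not pass. Cd79a, Ms4a1, Cr2 and Pax5 had a 0 in some library and were not tested, and each was higher in every intestinal control than in every skin control. This was common, as it held for 25.2% of the 29619 genes with a count in any control library and for 67.4% of the 2617 genes that, like these, had a count in every intestinal control and a 0 in some library. With no filter these 4 genes were called too, against 41.2% of all genes, with Cd79a higher by 6.97 on the log2 scale.

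IMQ against control in skin asked the same at the site of application, and Blk, Cd79b and Cd22 were higher with IMQ. Of the 5 genes tested, edgeR's quasi-likelihood test called these 3, against 1382 of 20512 genes (6.74%) over the whole table. The IMQ and control libraries did not overlap in these 3 genes and in Fcer2a, as was so for 28.4% of all genes tested. Blk, the kinase, had 34, 31 and 46 counts in the controls and 624, 857 and 1930 with IMQ. It was 34.3-fold higher (log2 fold change 5.10, SE 0.49, 95% interval 3.94 to 6.27, edgeR adjusted p = 0.0042). Every IMQ library was far above every control, and IMQ replicate 6 was the highest.

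Cd79b had 34, 41 and 15 counts in control skin and 298, 280 and 310 with IMQ. It was 10.7-fold higher (log2 fold change 3.42, SE 0.43, 2.41 to 4.43, edgeR adjusted p = 0.00849), with IMQ libraries close to each other. Its partner Cd79a had 4, 8 and 8 counts in the controls and 0, 12 and 8 with IMQ. It was not tested because of the 0, and the groups overlapped. Admitted without the filter, its log2 fold change was 0.12 (edgeR adjusted p = 0.969). The ratio of Cd79b to Cd79a FPKM was 1.53 to 8.67 in the controls and 20.4 and 35.2 in IMQ replicates 5 and 6, and could not be formed in replicate 4.

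Cd22 had 20, 17 and 14 counts in control skin and 135, 127 and 71 with IMQ, and the groups did not overlap. It was 7.22-fold higher (log2 fold change 2.85, SE 0.36, 2.0 to 3.70, edgeR adjusted p = 0.00889). Bank1 had 79, 53 and 36 counts in the controls and 48, 51 and 89 with IMQ, with overlapping groups and a log2 fold change of 0.31 (SE 0.40, -0.63 to 1.25, edgeR adjusted p = 0.695). Blk, Cd79b and Cd22 were called in each of the 6 fits that left out 1 skin library, control replicate 2 included.

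Fcer2a went the other way but did not pass. It had 70, 15 and 261 counts in control skin and 11, 2 and 7 with IMQ, so the groups did not overlap although the controls differed widely. The log2 fold change was -3.83 (SE 1.05, -6.33 to -1.34, edgeR adjusted p = 0.0812). DESeq2, which called 14.8% of all genes, called it (adjusted p = 0.000486), as did the edgeR fit without control replicate 2 (0.0224). Cr2 had 1, 5 and 3 counts in the controls and 0 in all 3 IMQ libraries, where 0 allows up to 3 counts per library, so no fold is given.

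**Figure D2:**
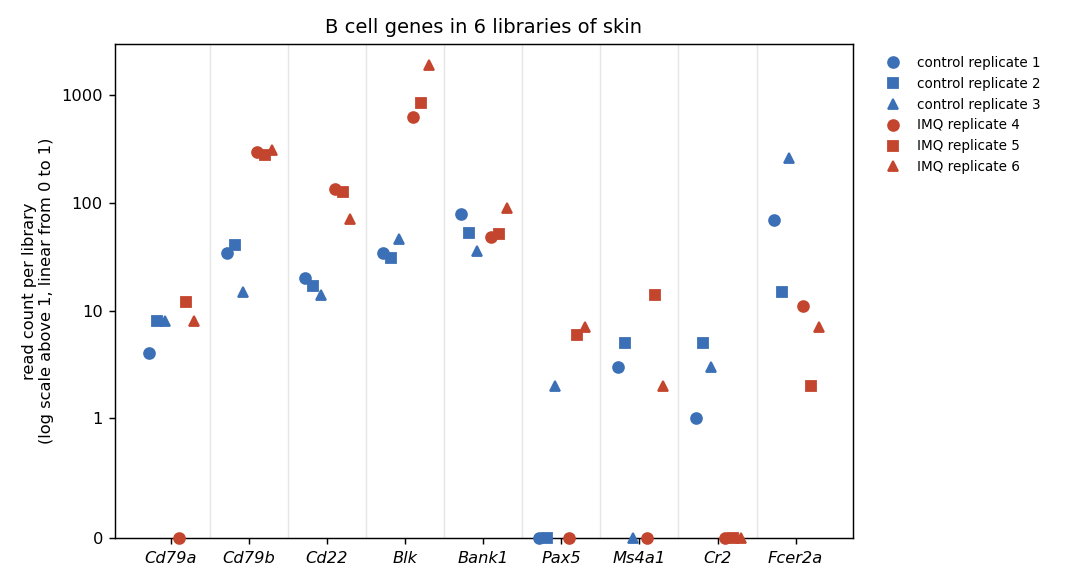
Read count of each of the 9 genes (y axis, log scale above 1, linear from 0 to 1) in the 6 skin libraries, with blue symbols for the 3 controls and red symbols for the 3 IMQ libraries. Blk, Cd79b and Cd22 separate, with Blk at 624 to 1930 counts with IMQ against 31 to 46 in the controls, while Cd79a, Pax5, Ms4a1 and Cr2 stay at 14 counts or fewer in all 6 libraries.

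Whether the 2 tissues responded differently was asked with an interaction term, the change in small intestine minus the change in skin. Of the 5 genes tested, edgeR's quasi-likelihood test called 2, Cd22 and Blk, against 462 of 18108 genes (2.55%). For Cd22 the difference was -4.25 on the log2 scale (SE 0.51, edgeR adjusted p = 0.00306), with a value of 2.85 in skin and -1.40 in small intestine. For Blk it was -4.88 (SE 0.86, edgeR adjusted p = 0.0153), but it lost the call without IMQ replicate 10 or IMQ replicate 11 of small intestine (highest adjusted p = 0.0908). Cd79b was higher with IMQ in every library of both tissues, with a difference of -2.22 (SE 0.53, edgeR adjusted p = 0.055) that passed in DESeq2, with TMM normalization, and without skin control replicate 2 or 3. Bank1 (1.18, SE 0.56, edgeR adjusted p = 0.318) and Fcer2a (2.19, SE 1.75, 0.586) did not pass.

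**Figure D3:**
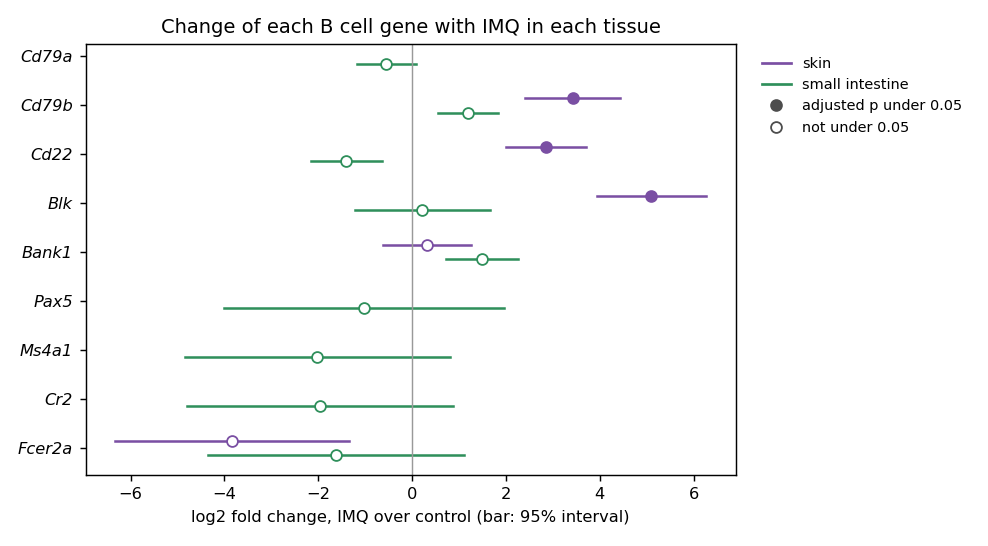
Log2 fold change of IMQ over control (x axis) for each gene in skin (purple) and small intestine (green), with bars for the 95% interval and filled points for an edgeR adjusted p under 0.05. Only Blk, Cd79b and Cd22 in skin have filled points, at 5.10, 3.42 and 2.85, and the widest intervals in small intestine are those of Pax5, Ms4a1, Cr2 and Fcer2a. Genes without a skin point had a 0 in some skin library.

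The summed FPKM of the 9 genes was made up of different genes in each group. It was 1.76, 1.51 and 2.61 in control skin and 10.4, 11.9 and 21.5 with IMQ, and 20.7, 13.7 and 25.1 in control intestine and 23 and 18.7 with IMQ. Relative to Ptprc (CD45, on all leukocytes), it was 0.152, 0.0904 and 0.299 in control skin and 0.43, 0.429 and 0.672 with IMQ. In small intestine this ratio was 1.62, 1.18 and 1.88 in the controls and 0.516 and 0.522 with IMQ. Ptprc itself was at 11.6 to 13.3 FPKM in control intestine and at 44.7 and 35.9 with IMQ.

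**Figure D4:**
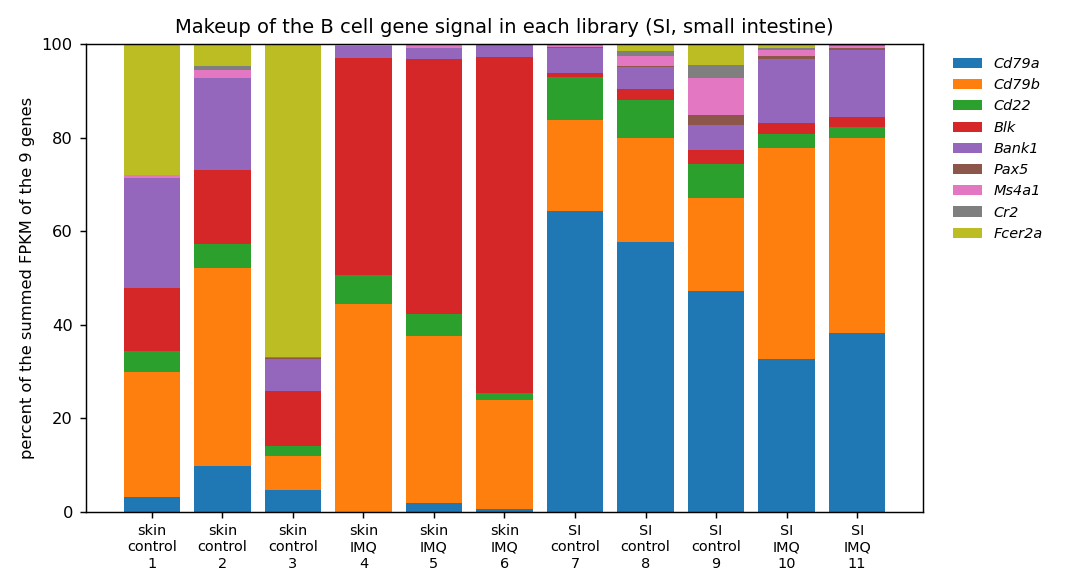
Share of each gene in the summed FPKM of the 9 genes (y axis, percent) in each of the 11 libraries. Cd79a makes up 47.2% to 64.2% in the intestinal controls and 32.7% and 38.1% with IMQ, Blk and Cd79b fill most of the bars of IMQ skin, and Fcer2a is most of the bar of skin control 3.

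The rest of the B cell receptor pathway was read from a list of 20 signaling genes. In skin 18 were tested, 6 were higher with IMQ and 0 lower, against 6.74% of all genes called. The median log2 fold change was 0.81 against -0.01 over all genes. The 3 with the largest changes were Pik3ap1, an adaptor of PI3 kinase (2.72, SE 0.25, edgeR adjusted p = 0.00355), Cd72, an inhibitory co-receptor (2.63, SE 0.27, 0.00445), and the kinase Lyn (1.80, SE 0.16, 0.00354). In small intestine 20 were tested, 9 were higher and 0 lower, against 2.95% of all genes called, with a median of 0.71 against -0.02. Cd72 had 313, 281 and 443 counts in the controls and 9146 and 5655 with IMQ, a log2 fold change of 4.40 (SE 0.20, edgeR adjusted p = 0.000153). Prkcb, a protein kinase C (3.12, SE 0.17, 0.000266), and Pik3ap1 (3.05, SE 0.18, 0.000362) came next. Many genes of this list also serve myeloid cells.

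Of 11 B cell transcription factors, 2 were higher and 1 lower with IMQ in skin, and 2 were higher and 0 lower in small intestine. Over all genes, 6.74% were called in skin and 2.95% in small intestine. Pou2f2, an octamer-binding factor, was higher in both tissues (3.19, SE 0.42, edgeR adjusted p = 0.0105 in skin, and 4.06, SE 0.25, 0.000379 in small intestine). So was Spi1, the factor PU.1 of myeloid and B cells (1.25, SE 0.16, 0.00961, and 2.43, SE 0.23, 0.00176, by the same test). Bach2 was lower in skin (-2.86, SE 0.52, edgeR adjusted p = 0.0258).

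Among 18 follicle genes, 14 were tested in skin and 3 were higher, with a median log2 fold change of 0.23. Cxcl13, the chemokine that attracts B cells, had 255, 176 and 214 counts in control skin and 5583, 6579 and 19461 with IMQ (5.78, SE 0.57, edgeR adjusted p = 0.00432). Tnfrsf13b, a receptor for the B cell survival factors BAFF and APRIL, gave 1.01 (SE 0.20, edgeR adjusted p = 0.0317). In small intestine 16 were tested and 1 was higher, Madcam1, an adhesion molecule of gut vessels (1.30, SE 0.26, edgeR adjusted p = 0.0465), with a median of 0.01. Of 7 germinal center genes, 6 were tested in skin and Rgs13 was higher (2.11, SE 0.36, edgeR adjusted p = 0.0226), and 5 in small intestine, where Bcl6 was higher (0.98, SE 0.16, 0.0195). The shares called over all genes, 6.74% in skin and 2.95% in small intestine, apply to the counts of both lists.

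Between the untreated tissues, 11 of 18 signaling genes tested differed, 8 higher in small intestine and 3 lower, among them Fcrla (3.23, edgeR adjusted p = 4.15e-05). Of the 11 transcription factors 4 were higher and 4 lower, led by Pou2af1 (7.11, edgeR adjusted p = 2.37e-06), Ebf1 (-3.15, 1.86e-07) and Irf8 (2.84, 2.78e-06). Of 13 follicle genes tested 4 were higher and 5 lower, and of 5 germinal center genes 1 was higher and 2 were lower. The background of 57% applies to these counts as well.

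Markers of other cells were read beside these results, with 6.74% of all genes called in skin as the background. In skin, the summed FPKM of 13 T cell genes was 22.6 to 40.7 in the controls and 34.2 to 95.9 with IMQ, and 1 of the 13 genes was called higher. A list of 12 genes of γδ T cells and IL-17, chosen after values were seen, gave 26.3 to 31.8 in the controls and 48.1, 66.3 and 134 in IMQ replicates 4, 5 and 6. Blk rose in this order too, but the order was not particular to this list. The T cell genes (34.2, 53.7 and 95.9) and 4 pan-leukocyte genes (184, 205 and 270) also had it, and the macrophage and monocyte genes (1180, 1140 and 1500) did not. Of the 9 genes tested in the list of γδ T cells and IL-17, 0 were lower and 4 were higher, among them Trdc, the constant region of the T cell receptor δ chain (2.83, SE 0.57, edgeR adjusted p = 0.035). Il17a had 0 counts in each control and 80, 71 and 243 with IMQ. Tcrg-V5 and Sox13 of this list were lower on average with IMQ, though not called. Their mean normalized counts were 7.45 against 42.4 and 1041 against 2302. The summed FPKM of 9 macrophage and monocyte genes was 511 to 715 in the controls and 1140 to 1500 with IMQ, with 6 of 9 higher. The 8 plasma cell genes (197 to 238 against 234 to 291) and 12 immunoglobulin constant regions (46.2 to 147 against 58.4 to 110) gave no call, with 7 genes tested in each list. The value of 147 was that of control replicate 2. Of those not tested, Ighg2c had 0 counts in every control and 8 to 28 with IMQ, and Tnfrsf17 had 16 to 32 and 0 to 15. The part of these cells in the skin result was not tested.

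In small intestine, where 2.95% of all genes were called, the macrophage and monocyte genes summed to 267 to 365 FPKM in the controls and to 969 and 898 with IMQ. Of these 9 genes 6 were higher, and all 4 pan-leukocyte genes were higher (56.3 to 72.1 against 235 and 211). The T cell genes summed to 31.6 to 43.5 against 30.3 and 28 with 0 of 13 called, and the plasma cell genes to 598 to 893 against 518 and 461 with 0 of 8 called. Of 11 immunoglobulin constant regions tested 3 were higher, among them Ighm, the IgM heavy chain (2.15, SE 0.28, edgeR adjusted p = 0.00711). Gp2, a receptor of M cells, had 117, 89 and 108 counts in the controls and 13 and 4 with IMQ (-3.64, SE 0.47, edgeR adjusted p = 0.00711). Of the 6 genes of follicle-associated epithelium and M cells it was the only 1 called, and the median log2 fold change of that list was -0.05. The list summed to 21 to 23.6 FPKM in the controls and to 20.7 and 19.5 with IMQ. A list of 5 eosinophil genes, also chosen after values were seen, summed to 1.4 to 3.32 FPKM in the controls and to 2.22 and 1.62 with IMQ, and 0 of 4 tested were called. Epx, the eosinophil peroxidase, had 24, 10 and 0 counts in the controls and 0 in both IMQ libraries. Prg2 of this list went the other way, with a mean normalized count of 7.84 in the controls and 14.7 with IMQ. Siglecf, Ccr3 and Il5ra were lower on average with IMQ, by less than the SD of the controls. The proximal intestine genes summed to 1370 to 3920 against 5290 and 6670, and the distal ones to 127 to 180 against 110 and 99.3, with 0 of 5 called in each. The part of cell composition and of the stretch of gut sampled was not tested.

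The genes whose profile was most like the mean of the 9 were sought by the root mean square difference of centred log2 normalized counts, where smaller is closer. Over all 11 libraries, among 15045 candidates, Trim30d (0.39), Gda (0.49), Cndp2 (0.50), Tesk2 (0.52), B4galt6 (0.53), Pgm1 (0.54), AW112010 (0.55), H2-Q10 (0.56), Zbp1 (0.57) and Gm12250 (0.57) came closest. The 9 genes themselves lay farther from the mean of their other 8, at 1.01 for Bank1 to 3.18 for Blk, so the mean profile described none of them closely. Over the 5 small intestine libraries, among 15028 candidates, Hspa12a (0.13), Igkv14-130 (0.20), Iigp1 (0.24), Ptprr (0.26), Gbp10 (0.27), Lama3 (0.27), Tgtp1 (0.27), Tgtp2 (0.31), Gbp6 (0.31) and Siglecg (0.31) came closest. Single genes were also looked at there, after their values were seen. The root mean square of their own centred values was 1.58 for Ms4a1, 0.38 for Cd79a and 0.86 for Bank1. A small spread makes small distances easier to reach, so distances are not comparable between these genes. The nearest to Ms4a1 were Cr2 (0.10), Ubd (0.44), Fcamr (0.47) and Ighd (0.49). The nearest to Cd79a were Fgf7 (0.07), Trgv2 (0.09), Cd3d (0.09) and Cd3e (0.10), and those to Bank1 were Phf11b (0.10), Acox2 (0.14), Tspan33 (0.18) and Ly6e (0.20). In skin, the root mean square of own centred values was 2.51 for Blk, 1.85 for Cd79b and 1.44 for Cd22. The nearest to Blk were Lcn2 (0.26), 5830411N06Rik (0.28), Cxcl13 (0.38), Tcrg-V4 (0.42) and Gm5150 (0.47). Those to Cd79b were Trpm2 (0.27), Serpinb3b (0.33), Fcgr4 (0.33) and Klra2 (0.34), and those to Cd22 were Tgm3 (0.15), Tpsab1 (0.21), Lama1 (0.21) and Gk (0.22).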

How the data were processed

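RNA of skin and small intestine was sequenced as paired-end reads in 11 libraries. The authors demultiplexed with bcl2fastq 2.20.0, trimmed with Trimmomatic, aligned to mm10 with HISAT2 2.1.0 and quantified with StringTie 2.1.3b. The authors deposited 1 table of whole-number counts per gene without normalization, together with FPKM, scaled by length and library size, and TPM. Libraries were made with a strand-specific mRNA kit, but the counting tool, its strand setting and the treatment of multi-mapping reads are not given in the sources used here. Counts of genes that overlap an antisense gene (Ms4a1, Pax5, Cd22 and Bank1) are therefore uncertain.

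Counts were tested with edgeR 4.0.16 (quasi-likelihood, R 4.3.3). Genes with any library of the fit below 1 count were left out and the rest scaled by relative log expression, as the methods of the study describe. The study itself tested with DESeq2, which was an alternative here. Each tissue was fitted alone for IMQ against control, and all 11 libraries together for the 2 comparisons of tissues. Adjusted p is Benjamini-Hochberg over all genes tested, called under 0.05. The standard error is the size of the log2 fold change divided by the square root of F. Levels of different genes were compared in FPKM only. Normalized counts are counts over effective library size, rescaled within each tissue. DESeq2 1.42.0, limma 3.58.1 on log2(FPKM + 0.01), TMM, filterByExpr, no filter, and leaving out each library were alternatives. Shares were also formed from TPM, which could not change them because within a library it is FPKM times a constant. The steps were tested on simulated data. Positions came from the GRCm38 annotation. Sequences of proteins were not used here, and promoters of Cd79b, Ms4a1 and Blk were not analysed here.

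The 9 genes and the gene lists were chosen with earlier results of these data known. Named were all 9 genes, the called genes of 4 B cell lists (the 3 largest changes where more were called) and the 10 genes of most similar profile. Some genes that this rule would name are not reported here. Genes named otherwise, and 2 of the lists, were chosen after their values were seen. The depth of 44995414 to 58526384 counts gives a floor of 3 counts for a count of 0, which covers counting error only. Chi-square of counts over its degrees of freedom was 27.8 to 186 in the 10 pairs of libraries of a group, so no library was a mere re-sequencing of another. This value cannot show whether libraries came from separate animals.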

Additional observations from a re-analysis of the deposited data

Results flagged for a closer look

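The change with IMQ differed between small intestine and skin, by the interaction term of edgeR with Benjamini-Hochberg adjustment, for 2 of the 9 genes and for the genes of the B cell lists given here. Over all genes the share called was 2.55%. Values are the log2 fold change in small intestine minus that in skin. Cd22 gave -4.25 (SE 0.51, edgeR adjusted p = 0.00306) and Blk -4.88 (SE 0.86, 0.0153). Of the follicle genes, Cxcl13 gave -5.16 (SE 0.97, edgeR adjusted p = 0.0214). Of the signaling genes, Prkcb gave 2.0 (SE 0.41, edgeR adjusted p = 0.0309), Cd72 1.78 (SE 0.37, 0.0325) and Syk 1.19 (SE 0.21, 0.0168). Bcl6 of the germinal center list gave 1.23 (SE 0.28, edgeR adjusted p = 0.049). Groups of 2 or 3 libraries were too small for a test of single libraries, so control replicate 9 of small intestine was described by its values alone.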

How the results depend on the processing

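No paired analysis was possible because the replicate numbers 1 to 11 are not shared between groups. Of 305 recomputed log2 fold changes of the 9 genes, 282 kept their direction and side of the threshold or moved by less than 1 SD, 11 passed only under the alternative, 2 no longer passed, 10 others moved and 0 called values reversed. In skin, 3 of the 9 genes were called under every alternative except DESeq2 and without control replicate 2, where Fcer2a made 4, while calls over all genes went from 1382 to 3030 with DESeq2 and to between 258 (without IMQ replicate 5) and 2521 (without control replicate 2) with a library left out; 325 remained without control replicate 1, 468 without IMQ replicate 4 and 687 without IMQ replicate 6. In small intestine, 0 of the 9 became 3 with DESeq2 and 0 to 1 with a library left out (1 without control replicate 8), and all genes went from 588 to 1206 with DESeq2 and with a library left out to between 294 (without IMQ replicate 10) and 801 (without control replicate 7), with 334 without IMQ replicate 11 and 378 without control replicate 9. Between the control tissues, 3 became 7 with filterByExpr and with no filter, because genes with zeros were then tested. With a library left out, Blk also passed without small intestine control replicate 7 (edgeR adjusted p = 0.038). Without skin IMQ replicate 4, Cd79a could be tested and passed (edgeR adjusted p = 4.12e-07). For the difference between tissues, 2 became 1 without IMQ replicate 10 or 11 of small intestine and 3, with Cd79b, without skin control replicate 2 or 3, and all genes went from 462 to 1281 with DESeq2, 301 with no filter, and 144 (without small intestine IMQ replicate 10) to 1072 (without skin control replicate 2) with a library left out. Apart from the filters, the cause was not tested. Shares of the 9 genes by TPM stayed within the spread of those by FPKM in 36 of 36 cases. This was fixed in advance, since within a library TPM and FPKM differ by the same factor for every gene, so it is no check. Genes under 20 counts in skin are limited by depth, and those led by replicate 9 by the number of libraries.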
